A study of Mus musculus with 12 samples.

Results

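The genes described here encode shelterin, the protein complex that sits on telomeric DNA, and 3 factors of telomere chromatin and replication. They are 10 mouse genes, *Terf1*, *Terf2*, *Terf2ip*, *Tinf2*, *Acd*, *Pot1a*, *Pot1b*, *Rtel1*, *Atrx* and *Daxx*, and they were read from every probe set whose annotation gives 1 of these symbols alone. A probe set is a group of short array probes for 1 transcript. The rule found 29 of the 45037 probe sets tested, with 7 for *Atrx*, 4 each for *Pot1a* and *Rtel1*, 3 each for *Terf1*, *Terf2* and *Terf2ip*, 2 for *Tinf2*, and 1 each for *Acd*, *Pot1b* and *Daxx*. All 10 genes were found, out of 18193 genes with a probe set of their own.

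The study profiled WT and *Terc*-/- (KO) mouse embryonic stem (ES) cells of C57BL/6 background on 12 Affymetrix arrays, 2 for each of 6 groups. *Terc* encodes the RNA template of telomerase, and the labels give the KO lines as generation G3/4, that is, from mice bred for several generations without it. Day 0 held undifferentiated ES cells, with the WT lines N12 and N33 at passage 12 and the KO lines F35 and A49 at passage 11, 1 line on each array. Days 8 and 15 held WT or KO cells that had left leukemia inhibitory factor (LIF), formed embryoid bodies in hanging drops and then grown in wells. In the study's naming F35 is a G3 and A49 a G4 line, so the KO samples of day 0 are of different generations, and generation and line cannot be told apart. Its text calls the profiled KO cells G4. The labels of the later arrays name no line, and no source used here says whether those duplicates are separate lines. P-values therefore measure only the spread between these samples, which may in part be technical.

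Shelterin covers the TTAGGG repeats at chromosome ends and keeps the DNA damage machinery from reading those ends as breaks. TRF1 and TRF2, the products of *Terf1* and *Terf2*, bind the duplex repeat, and RAP1 (*Terf2ip*) rides on TRF2. TIN2 (*Tinf2*) holds both to TPP1 (*Acd*), which carries POT1 onto the single-stranded overhang and also brings in telomerase. The mouse has a POT1a and a POT1b. RTEL1 is a helicase that unwinds telomeric loops and G-quadruplexes, and ATRX with DAXX places the histone variant H3.3 at telomeric and pericentric chromatin. Mouse ES cells are known for high levels of *Terf1*.

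The promoters of *Tinf2*, *Terf2* and *Pot1a* are shown for 3 genes described at length further on, since *Terf2* passed between genotypes, *Tinf2* passed over time, and *Pot1a* read lower in KO cells on each day without passing. They are the 250 bases before the annotated start in the RefSeq annotation of GRCm38.p6, and 9 of the 10 genes were matched there. *Terf1* was not matched. Capitals mark a motif found in the window, on either strand. The motifs were chosen after the sequences were seen, and a match is a description of the letters and not of a bound site.
Tinf2 (chr14:55681818-55682067, minus strand): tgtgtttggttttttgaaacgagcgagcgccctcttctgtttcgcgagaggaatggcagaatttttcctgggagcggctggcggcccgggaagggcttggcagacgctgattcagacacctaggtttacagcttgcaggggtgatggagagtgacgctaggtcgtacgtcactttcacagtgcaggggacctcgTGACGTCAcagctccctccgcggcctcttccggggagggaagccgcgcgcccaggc
Terf2 (chr8:107096546-107096795, minus strand): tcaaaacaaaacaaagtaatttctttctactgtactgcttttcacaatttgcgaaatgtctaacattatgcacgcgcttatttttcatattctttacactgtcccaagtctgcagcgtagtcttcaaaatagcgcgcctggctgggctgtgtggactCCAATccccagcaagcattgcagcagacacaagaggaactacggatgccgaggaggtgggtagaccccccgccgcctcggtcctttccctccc
Pot1a (chr6:25809219-25809468, minus strand): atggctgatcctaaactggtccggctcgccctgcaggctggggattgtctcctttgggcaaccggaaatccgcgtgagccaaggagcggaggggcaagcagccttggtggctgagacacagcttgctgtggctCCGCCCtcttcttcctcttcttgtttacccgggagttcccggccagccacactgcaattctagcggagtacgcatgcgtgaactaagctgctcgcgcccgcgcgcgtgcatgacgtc
The *Tinf2* window holds the palindrome TGACGTCA, the full cAMP response element, 56 bases before the start. That motif is in 1.55% of the 32851 promoter windows of the same length. The *Terf2* window holds a CCAAT box 93 bases before the start, a motif in 33.8% of windows. The *Pot1a* window holds the GC box GGGCGG, here on the opposite strand as CCGCCC, 117 bases before the start, and 32.7% of windows have it. The telomeric repeat unit TTAGGG is in 9.32% of windows. It is in 0 of the 3 windows shown, and 2 of 2 *Pot1b* windows, not shown, hold it.

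Array intensities carry no sequencing depth, and precision is limited by having 2 arrays per group. Probes differ in how strongly they bind, so neither intensities nor percentiles rank genes or probe sets by transcript level. The arrays of day 0 had been put on another scale than the other 8, with median intensities of 114 to 117 against 50.6 to 53.1. Day 0 is therefore linked to the later days only by the percentile of a probe set within its own array. The labelled state matched its markers at day 0, where the summed intensity of 10 pluripotency genes was 64792 to 68522 on the 4 arrays. At day 15 that sum was 2609 and 7875 on the WT arrays, against 19581 and 18350 on the KO arrays. The arrays that stood apart were line A49 at day 0, the second WT array of day 8, whose sum of 10 fibroblast genes was 28762 against 7372 on its partner, and the first WT array of day 15, with the lowest pluripotency sum of all.

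The course of each gene was followed by the percentile of its brightest probe set within an array, which compares a probe set with itself over days and does not rank the genes. *Atrx* lay at the 97.4 percentile in WT ES cells and at the 95.8 percentile in WT cells of day 15. *Pot1b* lay at 41.3 and 49.7. *Terf1* went from the 95 percentile in WT cells at day 0 to 72.2 at day 8 and 64.2 at day 15, and from 95.3 to 74.4 and 72.4 in KO cells. *Pot1a* went from 86.9 to 77.9 and 76.3 in WT cells and from 80.8 to 67.2 and 68.0 in KO cells. *Acd* and *Terf2* lay higher at day 15 than at day 0 in WT cells, *Acd* going from 80.0 to 87.0 and *Terf2* from 86.3 to 88.6. Other probe sets of a gene could run otherwise. In WT cells at days 0, 8 and 15, *Terf1* 1431332_a_at lay at 79.4, 54.6 and 38.3, but 1443527_at at 60.4, 67.7 and 68.6. From day 0 to day 15 the other *Atrx* probe sets ranged from a rise, 71.6 to 74.9 on 1420946_at, to a fall, 48.9 to 17.2 on 1420948_s_at. All of these are descriptions across arrays scaled apart, and no test was made.

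**Figure D1:**
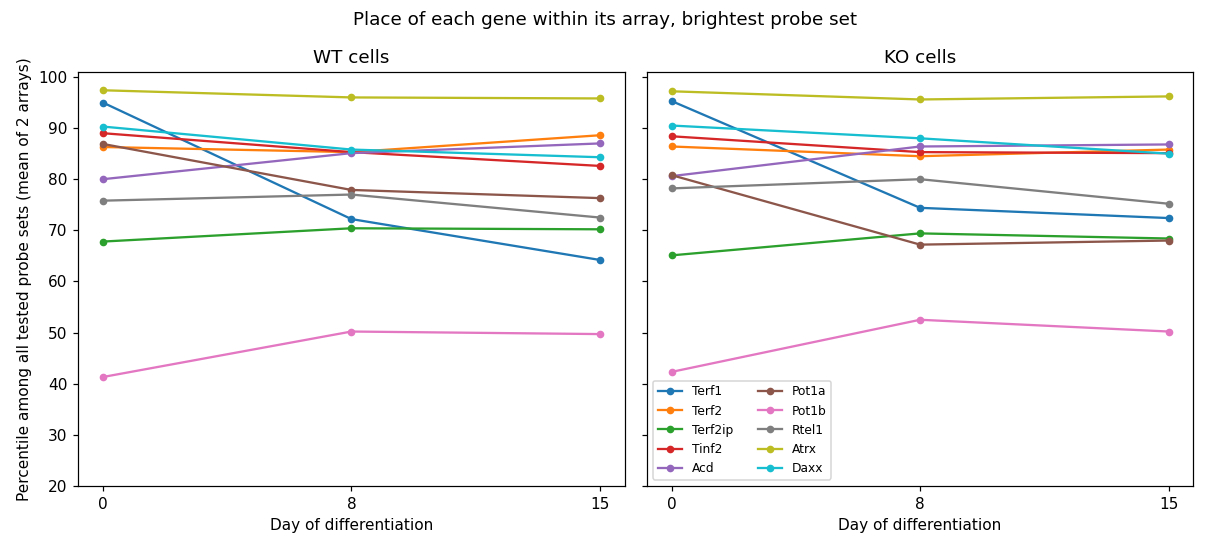
Percentile of the brightest probe set of each of the 10 genes among all tested probe sets of an array (vertical axis, mean of 2 arrays) against day of differentiation, in WT cells (left) and KO cells (right). Among these probe sets, that of *Terf1* has the steepest line in both genotypes, from 95 to 64.2 in WT and from 95.3 to 72.4 in KO cells. That of *Atrx* stays above 95 throughout.

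Of the 29 probe sets, 16 lay above the median of their array on all 12 arrays. Another 5, namely 2 of *Terf2ip* and 3 of *Pot1a*, lay under it on all 12, and the remaining 8 were under it on some. A further probe set of *Rtel1*, 1456729_x_at, fell from the 84.5 percentile at day 0 to 35.2 and 29.3 in WT cells, a course that the other 3 *Rtel1* probe sets did not share. Probe sets whose name ends in x_at hold probes that can match other transcripts, so this value is uncertain.

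**Figure D2:**
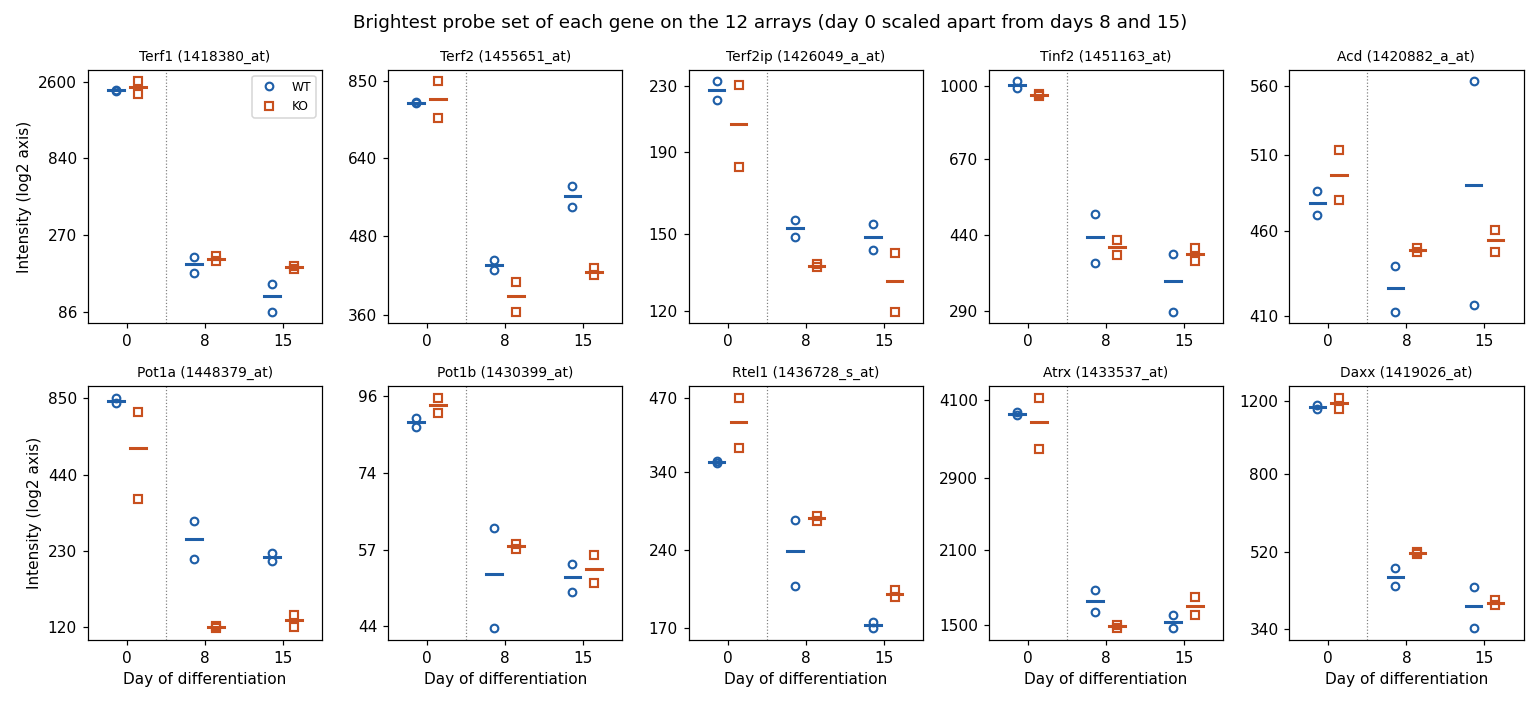
Intensity (log2 axis, a separate range in each panel) of the brightest probe set of each gene on the 12 arrays, by day. Points are single arrays, bars are the mean of 2, and the dotted line divides day 0, which was scaled apart, from days 8 and 15. At day 15 the KO arrays of *Terf1* lie above both WT arrays and those of *Terf2* and *Pot1a* lie below them.

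Of the 10 genes, *Terf1* (higher in KO cells on 2 of 3 probe sets) and *Terf2* (lower on 1 of 3) passed the threshold between genotypes, both at day 15, and the other 8 passed at no day. At day 0, limma called 0 of 29, against 0.0488% of all probe sets, with 7 at an unadjusted p under 0.05 (8.59% of all). By the methods' t-test at an unadjusted 0.05 it was 2, against 8.37% of all. At day 8 it called 0 of 29 against 1.13%, with 1 at an unadjusted p under 0.05 (13.9% of all) and 4 by the methods' t-test (8.58% of all). At day 15 it called 3 of 29, 2 higher and 1 lower in KO cells, against 12.9% of all probe sets. That is near the background share. In 1 direction the background was 6.45% higher and 6.45% lower. An unadjusted p under 0.05 was met by 4 of 29, against 26.3% of all. The KO arrays lay wholly above the WT arrays for 8, 4 and 9 of 29 at days 0, 8 and 15, against 29.5%, 25.7% and 30.8% of all, and wholly below for 10, 8 and 8, against 18.4%, 17.8% and 23.4%. The median log2 difference of the 29 was -0.00 at day 0, -0.04 at day 8 and 0.01 at day 15, beside 0.04, 0.03 and 0.04 over all probe sets.

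From day 8 to day 15, WT cells had 4 of 29 lower and 0 higher (*Terf1* on 2 probe sets, *Tinf2* and *Atrx*), against 9.16% lower and 6.89% higher, or 16% either way, over all probe sets. An unadjusted p under 0.05 was met by 7 of 29, against 28.1% of all. KO cells had 0 of 29 called, against 0.02%, with 4 at an unadjusted p under 0.05 (10.8% of all) and 4 by the methods' t-test (10.4% of all). The test of the difference between genotypes in this change called 0 of 29 against 0.422%, with 1 at an unadjusted p under 0.05 (12% of all). Both day 15 arrays were above both day 8 arrays for 4 and below for 9 of 29 in WT cells, against 25.5% and 25.5% of all, and for 4 and 13 in KO cells, against 21.9% and 24.8%. The count of calls in WT cells and the count in KO cells are therefore not shown to differ. The median change of the 29 was -0.16 in WT cells, with 20 below 0, and -0.07 in KO cells, with 18 below 0, beside 0.00 and -0.01 over all probe sets.

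**Figure D3:**
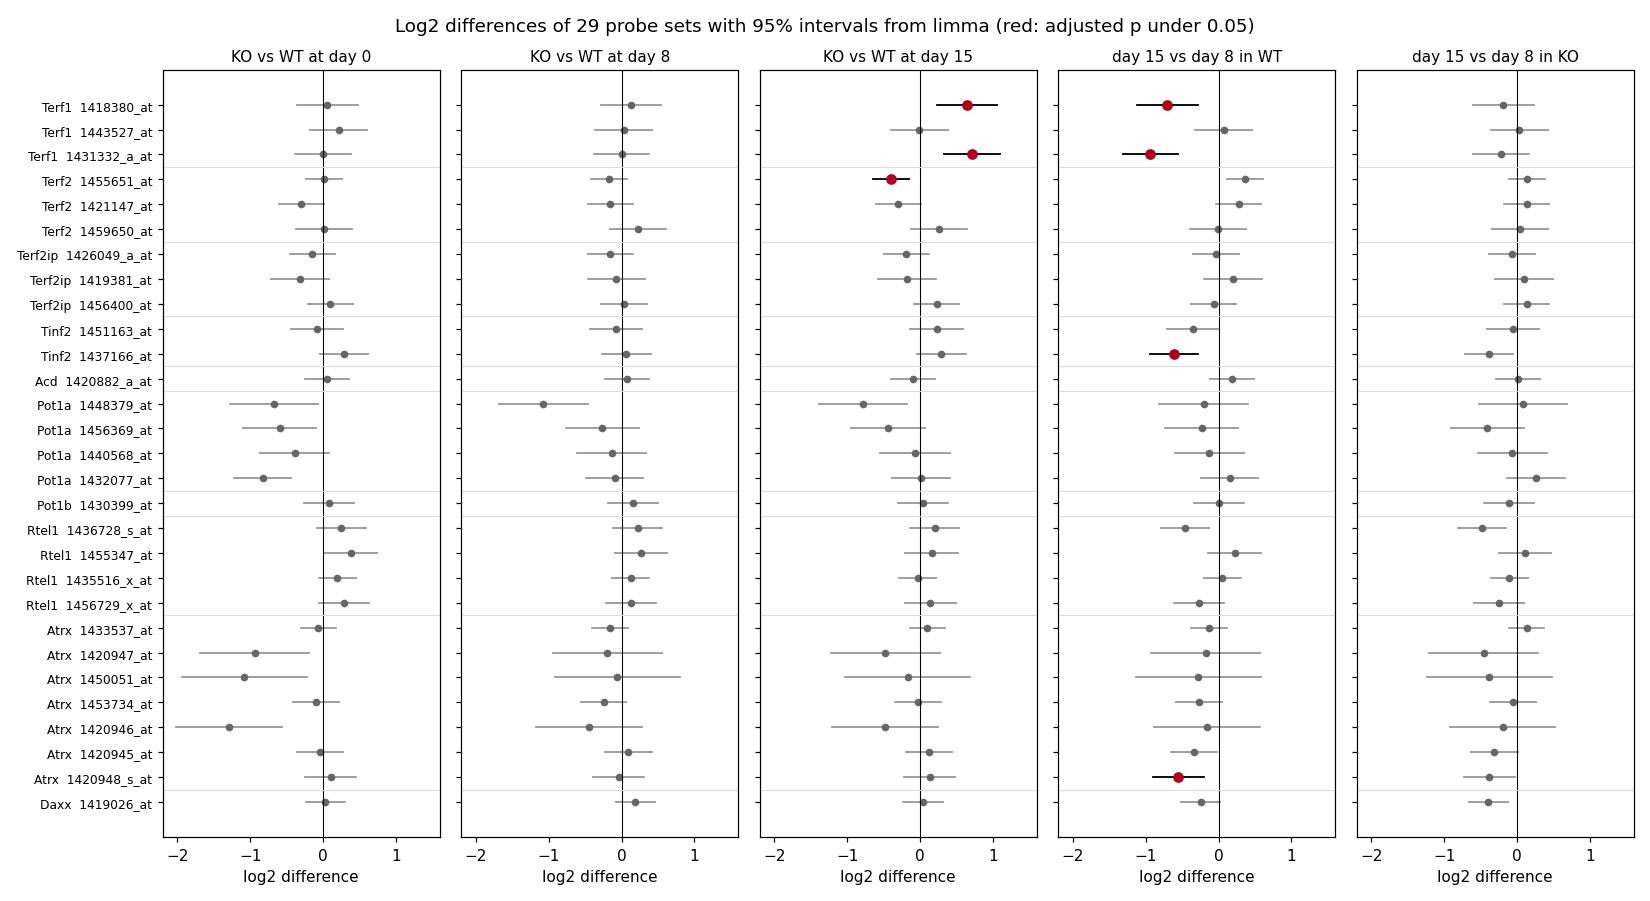
Log2 differences with 95% intervals from limma for the 29 probe sets (rows) in the 5 comparisons (panels), with red points for adjusted p under 0.05. The 3 red points at day 15 are 2 *Terf1* probe sets to the right of 0 and 1 of *Terf2* to the left, and the 4 in WT cells from day 8 to day 15 all lie to the left.

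*Terf1*, which encodes the repeat-binding protein TRF1, was higher in KO than in WT cells at day 15 and had fallen in WT cells since day 8. Its brightest probe set, 1418380_at, read 2285 and 2321 in the WT lines at day 0 and 2187 and 2639 in the KO lines. The day 8 values were 195 and 152 in WT and 196 and 182 in KO cells, and the day 15 values were 85.8 and 131 in WT and 169.6 and 162 in KO cells. The genotypes overlapped at days 0 and 8 and parted at day 15, with both KO arrays above both WT arrays. The log2 difference of KO from WT at day 15 was 0.65 (SE 0.19, 95% interval 0.23 to 1.06, n = 2 arrays per group, limma adjusted p = 0.0447). WT cells fell by 0.70 on the log2 scale from day 8 to day 15 (SE 0.19, limma adjusted p = 0.0273).

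The second *Terf1* probe set, 1431332_a_at, moved likewise and lay under the array median on 3 arrays. It read 33.8 and 32 in WT cells at day 15 against 50.6 and 57.3 in KO cells, after 66.3 and 59.6 in WT and 64.9 and 60.8 in KO cells at day 8. The log2 difference between genotypes was 0.71 at day 15 (SE 0.17, limma adjusted p = 0.0218), and the WT fall from day 8 was 0.93 (log2 change -0.93, limma adjusted p = 0.00456). In KO cells neither change from day 8 to day 15 passed, at -0.19 (limma adjusted p = 0.785) and -0.22 (limma adjusted p = 0.705), although both KO arrays of day 15 lay below both of day 8 on each probe set. The difference between genotypes in that change was 0.52 for 1418380_at (limma adjusted p = 0.485) and 0.71 for 1431332_a_at (limma adjusted p = 0.270), so a difference in course was not shown. The remaining *Terf1* probe set, 1443527_at, read 137 and 132 in WT and 137 and 131 in KO cells at day 15, a log2 difference of -0.01 with an interval of -0.40 to 0.38. The *Terf1* difference rests on few arrays. Without the first WT array of day 15 the value for 1418380_at was 0.35 (limma adjusted p = 0.308), and it did not pass without the first KO array (0.62, limma adjusted p = 0.215) or the second (0.68, limma adjusted p = 0.129). The value for 1431332_a_at stayed between 0.62 and 0.80 without any 1 array of day 15, with limma adjusted p of 0.0753 to 0.121. With an offset of 32 before the log2 it fell to 0.40 (limma adjusted p = 0.115), and 1418380_at had 0.52 (limma adjusted p = 0.0651). The day 15 call of 1418380_at was also lost with median centring, without trend and robust moderation, and with the compared arrays alone, at limma adjusted p of 0.0502, 0.0544 and 0.101. With the offset the WT fall on 1431332_a_at was -0.55 and still passed (limma adjusted p = 0.0313). The WT fall on 1418380_at did not pass without the first WT array of day 8 (-0.52, limma adjusted p = 0.145) or of day 15 (-0.40, limma adjusted p = 0.216).

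*Terf2* encodes TRF2, the shelterin protein that keeps chromosome ends from being joined, and at day 15 it differed from *Terf1* in sign. Its brightest probe set, 1455651_at, read 578 and 534 in WT cells and 416 and 427 in KO cells at day 15. The day 8 values were 439.6 and 425 in WT and 407 and 364 in KO cells, and at day 0 782 and 786 in WT and 848 and 743 in KO lines. The groups did not overlap at days 8 and 15, with KO cells below. The log2 difference was -0.40 at day 15 (SE 0.11, 95% interval -0.65 to -0.15, limma adjusted p = 0.0410) and -0.17 at day 8 (limma adjusted p = 0.556). In WT cells the rise from day 8 to day 15 was 0.36 on the log2 scale and missed the threshold (limma adjusted p = 0.0515), and in KO cells the change was 0.13 (limma adjusted p = 0.734). Probe set 1421147_at read 403 and 388 in WT and 304 and 341 in KO cells at day 15, a log2 difference of -0.30 (limma adjusted p = 0.207). Probe set 1459650_at had the other sign, at 0.27 (limma adjusted p = 0.383), and lay under the array median on 8 arrays. Leaving out any 1 array of day 15 took the adjusted p of 1455651_at past the threshold, to between 0.0544 and 0.194, with values of -0.34 to -0.45. The call was also lost with quantile normalization, without trend and robust moderation, and with the compared arrays alone, at limma adjusted p of 0.0620, 0.0501 and 0.102.

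*Terf2ip*, the gene of the TRF2 partner RAP1, passed in no comparison. Probe set 1426049_a_at read 154 and 143 in WT and 119.8 and 142 in KO cells at day 15, and its log2 differences of KO from WT were -0.15, -0.15 and -0.19 at days 0, 8 and 15. Both KO arrays were below both WT arrays at day 8 (136 and 138 against 149 and 156) and at day 15. The 95% interval at day 15 was -0.50 to 0.12, so a fall as large as that of *Terf2* lies within it. Its other 2 probe sets were under the array median throughout.

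*Tinf2*, the gene of the bridging protein TIN2, fell from day 8 to day 15 in WT cells on 1 of its 2 probe sets. Probe set 1437166_at lay under the array median on 5 arrays. It read 86.0 and 78.4 in WT cells at day 8 and 57.4 and 50.0 at day 15. In KO cells it read 88.2 and 83.7, then 73.3 and 59.0. Both genotypes were lower at day 15 without overlap, by a log2 change of -0.62 in WT (SE 0.15, limma adjusted p = 0.0181) and -0.39 in KO cells (limma adjusted p = 0.392). The difference between these changes was 0.23 (limma adjusted p = 0.752). The WT fall did not pass without the first WT array of day 8 (-0.55, limma adjusted p = 0.0822) or the second of day 15 (-0.52, limma adjusted p = 0.0868). The brighter 1451163_at read 495 and 378 at day 8 and 289 and 397 at day 15 in WT cells, so the WT days overlapped, with a log2 change of -0.35 (limma adjusted p = 0.185). KO and WT cells did not differ past the threshold on either probe set, with 0.23 on 1451163_at and 0.29 on 1437166_at at day 15 (limma adjusted p = 0.433 and 0.250).

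*Acd*, the gene of TPP1, has a single probe set, which passed in no comparison. It read 439 and 412 in WT and 447 and 449 in KO cells at day 8, and 564 and 416 against 447 and 461 at day 15. The KO arrays lay within the WT range at day 15. The log2 difference was 0.08 at day 8 (95% interval -0.23 to 0.38) and -0.09 at day 15 (-0.40 to 0.21).

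*Pot1a*, whose product shields the overhang from ATR signaling, had lower values in KO than in WT cells on each day, but missed the threshold each time. Its brightest probe set, 1448379_at, read 809 and 849 in the WT lines at day 0 against 749 in F35 and 359 in A49. At day 8 it read 296 and 214 in WT against 121 and 119 in KO cells, and at day 15 211 and 226 against 120.5 and 133. Both KO arrays lay below both WT arrays on each of the 3 days. The log2 differences were -0.68 at day 0 (limma adjusted p = 0.517), -1.07 at day 8 (SE 0.27, 95% interval -1.68 to -0.46, limma adjusted p = 0.103) and -0.79 at day 15 (SE 0.27, limma adjusted p = 0.0928). Without A49 the day 0 value was -0.14 (limma adjusted p = 1.00), and without F35 it was -1.21 (limma adjusted p = 0.0152). By the study's rule of a 1.8-fold ratio of mean intensities, with no test, 1448379_at was the only member past it at day 8, and was lower. Of all 45037 probe sets, 732 were lower and 297 higher past that rule there, 2.28% in all. At day 15 the rule was met by 0 members, against 6.28% of all probe sets. With a fit to the 8 arrays of days 8 and 15 alone, an alternative added after the data were seen, 1448379_at passed at both days (limma adjusted p = 0.0326 at day 8 and 0.0252 at day 15). The other 3 *Pot1a* probe sets were below the array median and their KO values at day 8 were 16.1 and 16.7 (1456369_at), 13.6 and 14.9 (1440568_at) and 5.56 and 5.74 (1432077_at), against 22.1 and 17.6, 20.6 and 11.9, and 6.13 and 5.93 in WT cells.

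*Pot1b*, the gene of the POT1 form that limits resection of the 5′ strand, differed little between genotypes on its single probe set. It read 89.2 and 86.5 in WT and 95.6 and 90.9 in KO lines at day 0, 61.4 and 43.6 against 57.2 and 58.1 at day 8, and 54.3 and 49.4 against 50.9 and 55.9 at day 15. The groups overlapped at days 8 and 15. The log2 differences of 0.09, 0.16 and 0.04 have 95% intervals that together reach from -0.30 to 0.50.

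*Rtel1*, the gene of the telomeric helicase, was lower at day 15 than at day 8 in both genotypes on its brightest probe set, without passing the threshold. Probe set 1436728_s_at read 275 and 205 in WT and 279.6 and 274 in KO cells at day 8, and 170.0 and 175 against 202 and 195 at day 15. The changes were -0.46 in WT (limma adjusted p = 0.0646) and -0.48 in KO cells (limma adjusted p = 0.307). Without the second WT array of day 8 the WT change was -0.67 (limma adjusted p = 0.00760), and without the first it was -0.25 (limma adjusted p = 0.346). Probe set 1455347_at was higher in KO than in WT cells without overlap on all 3 days, at 142 and 142 against 152 and 225 at day 0, 107 and 115 against 134 and 133 at day 8, and 134 and 124 against 144 and 144 at day 15. None of these differences passed, with 0.38, 0.27 and 0.16 on the log2 scale (limma adjusted p = 0.543, 0.502 and 0.612), and without A49 the day 0 value was 0.10. Over time 1455347_at ran against the brightest probe set, with both day 15 arrays above both of day 8 in each genotype. Its changes were 0.22 in WT (limma adjusted p = 0.439) and 0.11 in KO cells (limma adjusted p = 0.874).

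*Atrx*, the gene of the chromatin remodeler that partners DAXX, split by probe set at day 0. The brightest, 1433537_at, read 3888 and 3829.8 in the WT lines, 4141 in F35 and 3294 in A49, a log2 difference of -0.06 (95% interval -0.31 to 0.18). Probe set 1420946_at read 292 and 265 in WT, 159 in F35 and 81.3 in A49. Probe set 1420947_at read 1446 and 1276, then 1003 and 502, and 1450051_at read 1001 and 896, then 642 and 312. On these 3 both KO lines were below both WT lines, and A49 was the lower of the KO lines. The log2 differences were -1.29 (SE 0.33, limma adjusted p = 0.209), -0.94 (SE 0.33, limma adjusted p = 0.433) and -1.08 (SE 0.38, limma adjusted p = 0.431). These 3 probe sets were the only members past the 1.8-fold rule at day 0. Of all 45037 probe sets, 275 were lower and 235 higher past it there, 1.13% in all. The size of each value depended on line A49. Without A49 they were -0.80, -0.44 and -0.56 (limma adjusted p = 1.00 for each), and without F35 1420946_at had -1.77 (limma adjusted p = 0.0236) and 1420947_at -1.44 (limma adjusted p = 0.0621). The lone KO sample was assumed to vary like the other groups. The *Atrx* probe sets therefore disagreed, and their positions within the gene were not analysed here.

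A49 read more than 1.5-fold below the lowest of the other 3 lines on 4 of the 29 member probe sets, which is 3 of *Atrx* and the brightest of *Pot1a*. Over all probe sets A49 did so on 585, or 1.3%, while N12, N33 and F35 did so on 0.353%, 0.315% and 0.113%, with 0 members each. The 4 folds were 2.00 (1420947_at), 2.06 (1450051_at), 1.96 (1420946_at) and 2.09 (1448379_at). Line A49 is 1 array, so this is a value of that sample and not of the genotype. The paper states that its ES cells were kept on a feeder layer of mouse embryonic fibroblasts. The fibroblast sum was 8686 in A49 and 3140, 5251 and 5615 in N12, N33 and F35. The part of fibroblast RNA in these values was not tested.

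**Figure D4:**
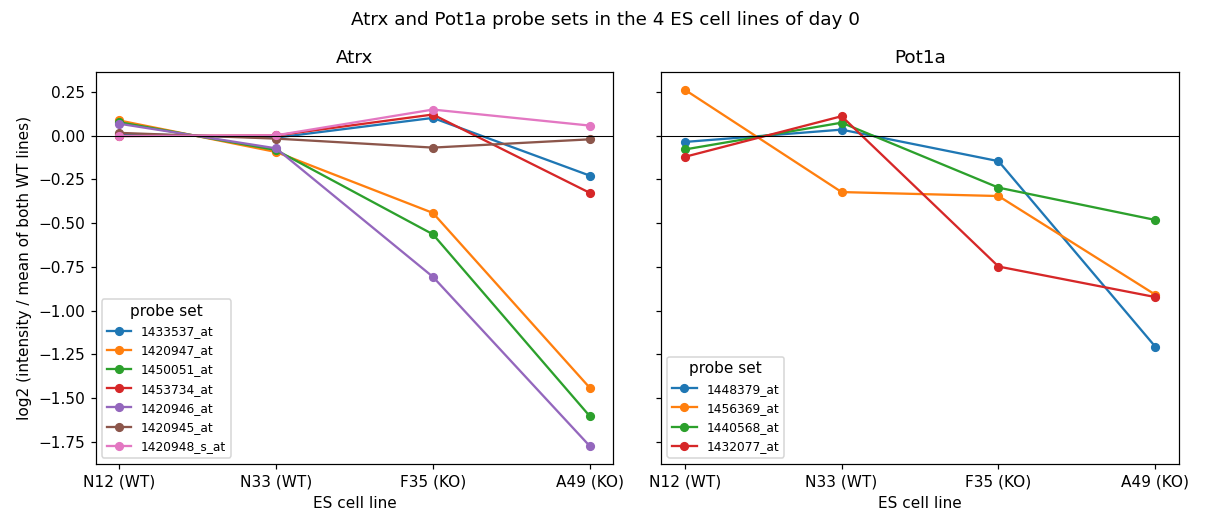
Log2 ratio of each *Atrx* probe set (left) and *Pot1a* probe set (right) to the mean of both WT lines (vertical axis) in the 4 ES cell lines of day 0, 1 array each. Lines join the points of 1 probe set and carry no order. A49 is lowest on 1420946_at, 1420947_at, 1450051_at and 1448379_at, while 1433537_at, 1420945_at and 1420948_s_at stay near 0.

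At days 8 and 15 no *Atrx* probe set differed between genotypes past the threshold. Probe sets 1420946_at, 1420947_at and 1450051_at varied within WT cells of day 8, where the first array read 297, 849 and 372 and the second 168, 516 and 197. From day 8 to day 15 the dim 1420948_s_at fell in WT cells, from 19.0 and 24.6 to 13.9 and 15.6 (log2 change -0.55, SE 0.16, limma adjusted p = 0.0365). Its KO values went from 23.6 and 18.7 to 17.1 and 15.3 (-0.38, limma adjusted p = 0.422). The WT fall did not pass without the second WT array of day 8 (-0.37, limma adjusted p = 0.186) or either WT array of day 15 (-0.47 and -0.64, limma adjusted p = 0.200 and 0.0539). With an offset of 32 the fall was -0.20 (limma adjusted p = 0.0945). Probe set 1420945_at passed without the second WT array of day 8 (-0.55, limma adjusted p = 0.0224) and had -0.13 without the first. The brightest probe set, 1433537_at, changed by -0.13 in WT and 0.13 in KO cells, with neither past the threshold. Both KO arrays lay below both WT arrays at day 8 and above them at day 15. The difference between genotypes in this change was 0.26 and did not pass (limma adjusted p = 0.558).

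*Daxx*, the gene of the H3.3 chaperone, did not differ between genotypes past the threshold. Its probe set read 1172 and 1144 in WT and 1220.5 and 1146 in KO lines at day 0, 476 and 431 against 520.4 and 513 at day 8, and 341 and 429 against 387 and 399 at day 15. KO was above WT without overlap at day 8, by a log2 difference of 0.19 (95% interval -0.08 to 0.46). From day 8 to day 15 KO cells changed by -0.39 (limma adjusted p = 0.296) and WT cells by -0.24 (limma adjusted p = 0.230).

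The fall of *Terf1* and *Tinf2* in WT cells and the difference of *Terf1* at day 15 ran beside other markers. At day 15, 9 of 10 pluripotency genes were higher in KO cells (median log2 difference 2.39), against 6.45% of all probe sets. Of 10 fibroblast genes 6 were lower (median -1.93), against 6.45% of all. The pluripotency sum in WT cells went from 16272 and 13974 at day 8 to 2609 and 7875 at day 15, and in KO cells from 23725 and 22044 to 19581 and 18350. The fibroblast sum was 78247 and 58553 in WT and 11800 and 17408 in KO cells at day 15, and the sum of 5 blood genes was 2319 and 1710 against 159.99 and 145 in KO cells. Of those 5, *Hbb-y*, *Hbb-bh1* and *Hba-x* were lower past the threshold. *Alas2* (log2 difference -0.23, limma adjusted p = 0.370) and *Klf1* (-0.13, limma adjusted p = 0.637) were not. The sum of 11 proliferation genes went from 32971 and 24285 at day 8 to 20258 and 20652 at day 15 in WT cells. In KO cells it went from 27353 and 26877 to 22662 and 23377. By limma 7 of the 11 fell in WT cells, against 9.16% of all probe sets, and 0 passed in KO cells, against 0.02%. The difference between genotypes in this change called 0 of the 11. The ratio of 3′ to 5′ signal on *Actb*, a measure of RNA quality, was 1.68 to 1.81 at day 0 and 2.27 to 3.11 later. It was highest in the first KO array of day 15. The day 0 arrays were also scaled apart, so RNA quality and array processing cannot be told apart in this step. The part of cell make-up and of RNA quality in these member differences was not tested. In bulk RNA, fewer cells of a type and less RNA per cell cannot be told apart.

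The genes whose intensities followed *Terf1*, *Terf2*, *Pot1a* and *Rtel1* most closely over the 8 arrays of days 8 and 15 were searched among 14921 probe sets with a mean intensity of at least 100, by Pearson's r. For *Terf1* they were *Sall4* (0.9944), *Etv5* (0.9937) and *Fam169a* (0.9927). For *Terf2* they were *Slc30a7* (0.9894), *Six5* (0.9872) and *Mrpl14* (0.9855). For *Pot1a* they were *Dennd2a* (0.9854), *Braf* (0.9847) and *Ubn2* (0.9837), and for *Rtel1* *Miga1* (0.9874), *Crlf3* (0.9816) and *Rbm14* (0.9806). The arrays of a genotype or a day share their group, so these values describe a shared course over 4 groups.

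Other genes of telomere maintenance were read for comparison, from the brightest probe set of each. Over all probe sets, 6.45% were called higher and 6.45% lower in KO cells at day 15. Of 25 factors that bind or replicate telomeres, 2 were higher there, near that share, and 0 lower (median 0.16). These were *Rif1*, a regulator of replication timing and end resection, at 1013 ± 258 (SD, n = 2) in WT and 1968 ± 68.3 in KO cells (log2 difference 0.98, limma adjusted p = 0.00379), and *Ctc1* of the CST complex, at 371 ± 63.4 and 517 ± 21.1 (0.49, limma adjusted p = 0.0310). From day 8 to day 15 in WT cells 9 of the 25 fell, against 9.16% of all probe sets, with a median of -0.28. Among them were *Mre11a* (-0.98), *Rif1* (-0.92), *Dna2* (-0.84) and *Pinx1* (-0.79). In KO cells, where 0.02% of all probe sets were called, 0 of 25 passed, and the median was -0.18. Of 18 measured partners of *Atrx* and *Daxx* and heterochromatin genes, 1 was higher at day 15, near the 6.45% of all probe sets. It was *Cbx1* (HP1β, 0.45, limma adjusted p = 0.0318). In WT cells over time 3 of the 18 were lower, against 9.16% of all (*Asf1a* -0.68, *Cbx1* -0.61, *Hira* -0.48).

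The 10 genes of telomerase and its assembly had 6 higher in KO cells at day 15, against 6.45% of all probe sets, with a median of 0.64. The 6 were *Nhp2* (1.11), *Dkc1* (1.04), *Tert* (0.76), *Gar1* (0.70), *Naf1* (0.68) and *Wrap53* (0.55). In WT cells 6 of the 10 fell from day 8 to day 15, against 9.16% of all probe sets (median -0.79). In KO cells, where 0.02% of all probe sets were called, 0 passed, with a median of -0.26. The test of the difference between genotypes in this change called 0 genes in each of the 3 lists, so a difference in course was not shown. At days 0 and 8 none of the genes in these 3 lists was called by limma. These lists are counts beside the background given for all probe sets, and no test was made of a list.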

How the data were processed

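The 12 arrays hold total RNA of WT and *Terc*-/- cells, 2 per group. The authors deposited linear intensity values, 1 per probe set and array. The submitters' processing notes name MAS5 without version or scaling settings, and the authors' methods name CapitalBio software and a 1.8-fold rule. Of 45101 probe sets, 64 controls were left out, and 34945 of the rest carried 1 symbol, 932 several and 9160 none in GEO's platform annotation.

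Intensities under 1 were raised to 1, log2 was taken, and limma 3.58.1 with statmod 1.5.0 in R 4.3.3 fitted 1 mean per group, with trend and robust moderation. P-values are two-sided and adjusted by Benjamini-Hochberg over 45037 probe sets, with a threshold of 0.05. Every probe set of each member was examined, and percentiles and other genes were read from the brightest. The members and lists were chosen with earlier results of these data known. The fit was tested on simulated data. Tables were made with pandas 2.3.3 and numpy 2.4.6 in Python 3.11.15, and figures with matplotlib 3.10.9.

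Alternatives tried were quantile normalization, median centring, an offset of 32, dropping dim probe sets, dropping the trend and robust steps, a block for the replicate number, fitting the compared arrays alone, the methods' t-test, leaving out single arrays and averaging the probe sets of a gene. A fit to the 8 arrays of days 8 and 15 was added after seeing the data.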

Additional observations from a re-analysis of the deposited data

Results flagged for a closer look

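*Atrx* probe set 1420945_at was the only member whose KO arrays all lay below the WT arrays at day 0 (log2 difference -0.044) and above them at day 15 (0.12). This probe set lay under the array median on 11 of the 12 arrays. Neither difference passed the threshold, and the difference between those days was not tested.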

How the results depend on the processing

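Counts are of the 29 member probe sets called, with the share of all probe sets called under the same setting in parentheses. At day 0 (0 in the main setting) an offset of 32 gave 1 (0.651%), *Pot1a* 1432077_at at -0.32, the methods' t-test at an unadjusted 0.05 gave 2 (8.37%), and leaving out 1 array gave 0 to 2, with 2 without the first KO array, F35 (1.49%), *Atrx* 1420946_at and *Pot1a* 1448379_at. At day 8 (0) the methods' t-test at an unadjusted 0.05 gave 4 (8.58%) and only the 8 arrays of days 8 and 15 gave 1 (0.653%), with 0 to 0 when leaving out 1 array. At day 15 (3) an offset of 32 gave 1 (11.1%), no trend or robust moderation 1 (12.1%), the methods' t-test 0 (0%) after Benjamini-Hochberg and 5 (14.5%) unadjusted. Only the arrays compared gave 2 (9.66%) at that day, with 2 calls lost and 1 gained. Leaving out 1 array gave 0 to 1 there, with 0 without the first WT (5.85%), the first KO (3.82%) or the second KO array (7.46%), and 1 without the second WT array (12.9%). For WT cells from day 8 to day 15 (4) only the arrays compared gave 0 (0.815%), the methods' t-test after Benjamini-Hochberg 0 (0%), and only the 8 arrays 2 (10.9%). An offset of 32 gave 3 (14.3%), quantile normalization 5 (14.4%) and median centring 5 (16.6%). Leaving out 1 array gave 2 to 6, with 2 without the first array of day 8 (11.7%) or of day 15 (7.99%) and 6 without the second of day 8 (20.4%). For KO cells over those days (0) only the arrays compared gave 1 (2.83%), *Rtel1* 1436728_s_at, and the methods' t-test unadjusted 4 (10.4%), and leaving out 1 array gave 0 to 0. The interaction had 0 under each alternative run. Read as a mean over its probe sets, 0 genes in place of 2 passed at day 15 and 2 in place of 1 in WT cells over time, *Tinf2* (-0.48) and *Terf1* (-0.52). No called value reversed, and the cause of the lost calls was not tested. Same-numbered WT and KO arrays of a day did not deviate together (correlations 0.0129, 0.0957 and -0.144 at days 0, 8 and 15). That gave no sign of pairing by number within a day, and pairing between days was not checked. With a replicate block the counts were 0, 0, 2, 4, 0 and 0 in the order above, and *Terf1* 1418380_at lost its call at day 15 (limma adjusted p = 0.0541).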
